A study of Mus musculus with 24 samples.

Results

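The insulin-like growth factor binding proteins form a small gene family with 7 members in the mouse, Igfbp1 to Igfbp7, and their mRNAs were followed here in 4 tissues of young and aged animals. Members were chosen by name alone: every array probe whose RefSeq accession, version removed, belongs to one of these 7 symbols was taken, whatever its values. This gave 8 probes of the 56605 on the array and 7 genes of the 22911 with a symbol. Igfbp4 (NM_010517) has 2 probes, and Igfbp1 (NM_008341), Igfbp2 (NM_008342), Igfbp3 (NM_008343), Igfbp5 (NM_010518), Igfbp6 (NM_008344) and Igfbp7 (NM_008048) have 1 each.

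Total RNA from C57BL/6J males, either 10 or 90 weeks old, was taken from white adipose tissue (WAT), kidney, lung and liver. It was labelled with Cy3 and hybridized to 24 Agilent arrays in 1 colour, with 3 samples for each age and tissue. All 8 groups share strain and sex, no treatment or altered allele is named for any of them, and the aged livers are numbered 1, 2 and 4. All 6 arrays of a tissue, both ages included, lie on 1 slide, and no slide holds a second tissue, so ages were compared within a slide, whereas tissue and slide cannot be told apart. The labels number the samples without saying which animals they came from or whether 1 animal gave several tissues, so the p-values measure the spread between these samples.

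IGFBPs are secreted proteins that bind IGF1 and IGF2 in the blood and around cells, lengthen their life in the circulation and either hold them back from the IGF1 receptor or deliver them to it. IGFBP3 and IGFBP5 join an IGF and the acid-labile subunit in the large complex of the circulation, IGFBP1 follows insulin and fasting in the liver, IGFBP4 and IGFBP5 are cut by pappalysins, and IGFBP6 prefers IGF2. IGFBP7 binds IGFs weakly, is abundant in vessels and is often counted among the factors that senescent cells secrete.

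Some of the genes are neighbours. In the RefSeq gene table Igfbp2 is followed directly by Igfbp5 on chromosome 1 and Igfbp1 directly by Igfbp3 on chromosome 11, while Igfbp4 (chromosome 11), Igfbp6 (chromosome 15) and Igfbp7 (chromosome 5) have no family member beside them. The 250 bases before the annotated start are printed for 3 members that carry most of what follows: Igfbp1, which differed most between tissues, its neighbour Igfbp3, which was called in 3 tissues, and Igfbp2, which had the largest age change. They are RefSeq sequences of the build GRCm38.p6, read 5′ to 3′ along the gene, at chr11:7197537-7197786 (plus strand) for Igfbp1, chr11:7213924-7214173 (minus strand) for Igfbp3 and chr1:72824230-72824479 (plus strand) for Igfbp2. Capitals mark 3 motifs, searched on both strands: ACGTG, a form of the core of the hypoxia response element, CAAAACA, the core of the insulin response sequence, and GGGCGG, the GC box. Other forms of the hypoxia core were not searched.

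Igfbp1: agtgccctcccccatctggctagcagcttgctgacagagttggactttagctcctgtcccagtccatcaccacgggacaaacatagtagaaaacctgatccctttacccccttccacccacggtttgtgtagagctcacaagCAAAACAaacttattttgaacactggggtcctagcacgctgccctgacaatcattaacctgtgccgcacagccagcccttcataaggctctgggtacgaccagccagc
Igfbp3: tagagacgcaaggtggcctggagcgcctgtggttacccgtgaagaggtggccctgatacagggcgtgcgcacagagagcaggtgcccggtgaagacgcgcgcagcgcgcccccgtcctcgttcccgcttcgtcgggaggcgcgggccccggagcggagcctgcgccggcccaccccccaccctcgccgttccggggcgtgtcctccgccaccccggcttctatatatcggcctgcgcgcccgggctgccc
Igfbp2: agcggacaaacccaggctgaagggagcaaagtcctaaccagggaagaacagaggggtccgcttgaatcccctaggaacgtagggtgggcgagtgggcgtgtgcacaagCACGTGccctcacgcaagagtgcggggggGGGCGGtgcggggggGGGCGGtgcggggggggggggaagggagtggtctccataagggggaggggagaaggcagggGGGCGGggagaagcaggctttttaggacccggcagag

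The window of Igfbp1 held the insulin response core, 108 bases before the start, a motif found in 5.56% of all 32851 promoters of the table. The window of Igfbp2 held the hypoxia core, where a palindrome matches on both strands at 142 and 141 bases before the start, and 3 GC boxes at 113, 98 and 37 bases. A second annotated start of Igfbp2 held none of the 3 motifs in its window. Over all promoters 16.6% held the hypoxia core and 32.7% the GC box. Of the other members only Igfbp7 held a match (1 hypoxia core and 4 GC boxes). The windows of Igfbp3, Igfbp4, Igfbp5 and Igfbp6 had none of the 3 strings as searched. The G and C share of the printed windows was 53.2% for Igfbp1, 73.2% for Igfbp3 and 67.2% for Igfbp2, against a median of 52.4% over all promoters. A match says only that the letters are there.

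Each value below is a level on the log2 scale: the processed signal of the probe, which is the spot's brightness after background subtraction, minus the 75th percentile of the same array. A level of 0 therefore stands for a probe as bright as that percentile, and levels of different genes are not compared, because probes differ in brightness. The share of probes well above background ran from 58.6% to 71.1% over the arrays, no spot was saturated, and arrays of a group correlated between 0.942 and 0.995. Gene lists for the tissues were at home where they should be. The summed level of 8 hepatocyte markers, in multiples of the array's 75th percentile, was 2247 to 3725 in livers and at most 258 elsewhere, and the lists for lung epithelium, kidney tubule and adipocytes were likewise highest in the lung, kidney and WAT. From the lists for hepatocytes and mesothelium, 2 samples were singled out. Aged lung 1 had a hepatocyte sum of 219, against 0.479 to 8.61 in the other lungs. Young WAT 1, of the group that held the lowest correlation, had a mesothelium sum of 1.65, against 51.1 and 26.0 in young WAT 2 and 3. The age changes of the members in lung and WAT are also given without aged lung 1 and young WAT 1. Tissue pairs and gene lists were not recomputed without them. Other samples were uneven on other lists. For injured tubules the sum was 563 in aged liver 2, against 108 and 42.4 in the other aged livers. It was 104 in aged WAT 3, against 30.0 and 20.0 in the other aged WAT samples. The part of this unevenness was not tested. In bulk RNA, fewer cells of a type and less RNA per cell cannot be told apart.

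All 7 members differed in level among the 4 tissues at 10 weeks in an F-test of limma over all arrays, as did 89.3% of all genes. In such shares, here and below, each array entry without a gene symbol also counts as a gene. Pairs of tissues also separated most members. Young liver and lung differed in 6 of 7 (71.8% of all genes), kidney and liver in 6 (54.1%), WAT and liver in 6 (65.8%), kidney and lung in 6 (61.8%) and WAT and kidney in 6 (54.3%). Young WAT and lung differed in 2 members, Igfbp2 and Igfbp4, where 51.6% of all genes differed.

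The tissue patterns at 10 weeks fell into groups. Igfbp1, Igfbp2 and Igfbp4 were highest in the liver, Igfbp3 and Igfbp7 in the kidney, and Igfbp5 and Igfbp6 had their highest mean in the lung, with Igfbp5 lowest in the liver and Igfbp6 in the kidney. Igfbp1 spanned the widest range: in the young liver it stood at 6.73, 6.37 and 7.04, in the young kidney at 3.74, 2.56 and 4.08, and it was well above background in none of the 3 young lungs. The liver was at least 5980-fold and the kidney at least 628-fold above the young lung (adjusted p = 5.17e-07 and 1.78e-05), bounds set, on each lung array, against the dimmest signal still well above background. Young liver and kidney, 3.25 apart, were not separated by the fit of all arrays (standard error 1.66, adjusted p = 0.108), although the samples did not overlap. That fit shares 1 spread over all groups. The SD of Igfbp1 was 0.33 in young liver and 0.80 in young kidney, but 3.80 in young WAT and 4.11 in aged lung.

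Igfbp2 had an order in which every neighbour differed: liver at 6.14 ± 0.18 (SD, n = 3), lung at 3.47 ± 0.15, WAT at 0.53 ± 1.11 and kidney at -3.82 ± 0.17. The 10-week liver was 6.38-fold above the lung (limma adjusted p = 0.000231), the lung 7.69-fold above WAT (adjusted p = 0.000180) and WAT 20.3-fold above the kidney (adjusted p = 1.86e-06). By 90 weeks the last places were exchanged. Aged kidney was 18.4-fold above aged WAT (adjusted p = 5.36e-06), and the order became liver, lung, kidney, WAT, again with every neighbour different.

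Igfbp3 was highest in the young kidney at 5.56 ± 0.24, 3.91-fold above the lung (limma adjusted p = 0.00179). Lung, liver and WAT followed at 3.59, 2.67 and 2.49 and were not separated (adjusted p between 0.0654 and 0.767). At 90 weeks the kidney (4.55), liver (4.07) and WAT (3.38) were not separated from each other, and the lung, at 1.86, was below all 3. The aged WAT mean rests on aged WAT 3, at 5.21 against 2.39 and 2.55 in the others, and this order was not tested without it. Igfbp4, whose protein the protease PAPP-A cuts, ran liver (4.83), kidney (3.74), WAT (2.92), lung (1.54), with every neighbour different at 10 weeks (adjusted p from 4.08e-06 to 0.0131 over the pairs of liver with WAT, WAT with lung, liver with kidney and kidney with WAT). Its kidney and WAT levels were no longer separated at 90 weeks (adjusted p = 0.382).

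Igfbp5 was 21.3-fold to 27.1-fold higher in lung, kidney and WAT than in the liver at 10 weeks (limma adjusted p at most 2.25e-07), and those 3 tissues were not separated (adjusted p between 0.571 and 0.786). Igfbp6 was high in lung and WAT, at 6.21 ± 0.16 and 5.60 ± 1.26, which were not separated, and low in liver and kidney, at 0.56 and -1.03. The lung was 50.3-fold above the liver, and the liver 3.01-fold above the kidney (adjusted p = 7.73e-08 and 0.0271). Igfbp7 was highest in the kidney at 8.57, 2.12-fold above the lung (adjusted p = 7.23e-06), with lung and WAT not separated (adjusted p = 0.104) and both above the liver, at 5.96.

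**Figure D1:**
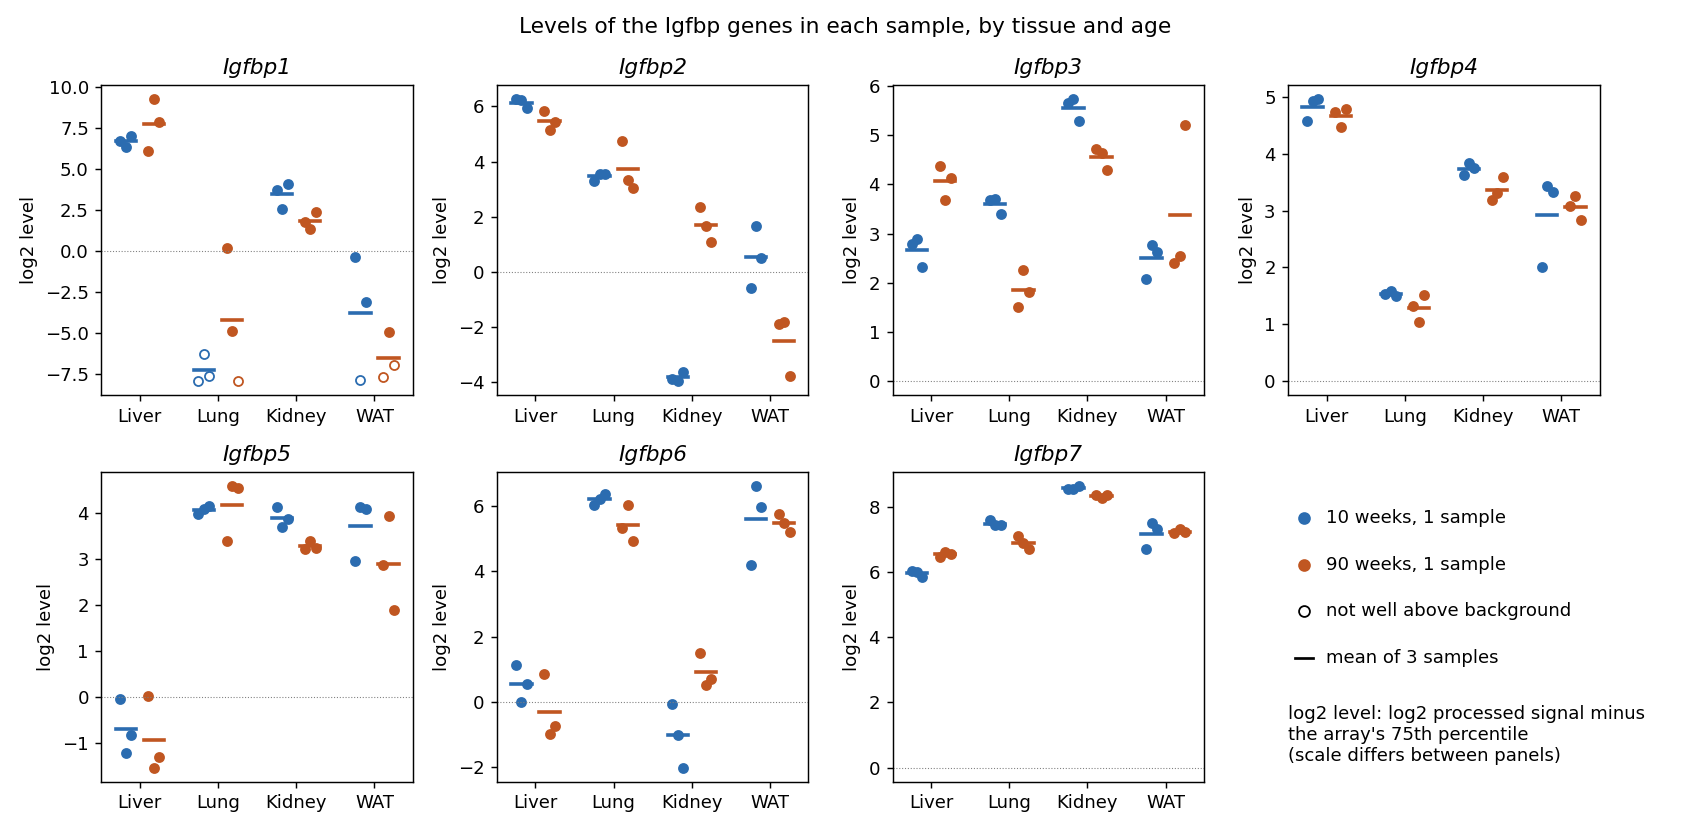
Level of each Igfbp gene on the log2 scale, relative to the array's 75th percentile, by tissue, with blue points for 10 weeks, orange points for 90 weeks, open points for probes not well above background and lines for the mean of 3 samples. Igfbp2 moves from -3.82 to 1.70 in the kidney and from 0.53 to -2.50 in WAT, and Igfbp3 rises from 2.67 to 4.07 in the liver while it falls from 3.59 to 1.86 in the lung.

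Ages were compared in each tissue by limma with Benjamini-Hochberg adjustment over all its genes, and changes with an adjusted p under 0.05 are spoken of as called. Of 27 tests of a member in a tissue, 4 were called higher at 90 weeks and 6 lower. The kidney held most of them, with 2 members called higher, where 20.6% of all its genes were, and 5 called lower, where 42.6% were. In the liver 2 members were called higher (10.5% of all genes) and none lower (17.0%; 1 at an unadjusted limma p under 0.05). In the lung none of 6 was called higher (2.72%; 0 at an unadjusted p) and 1 was called lower (2.89%; 3 at an unadjusted p). In WAT none of 7 was called higher (2.01%; 0 at an unadjusted p) or lower (0.579%; 1 at an unadjusted p). Young and aged samples did not overlap for 7 members in the kidney (70.7% of all genes), 3 in the liver (49.9%), 3 in the lung (35.8%) and 1 in WAT (28.8%).

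**Figure D2:**
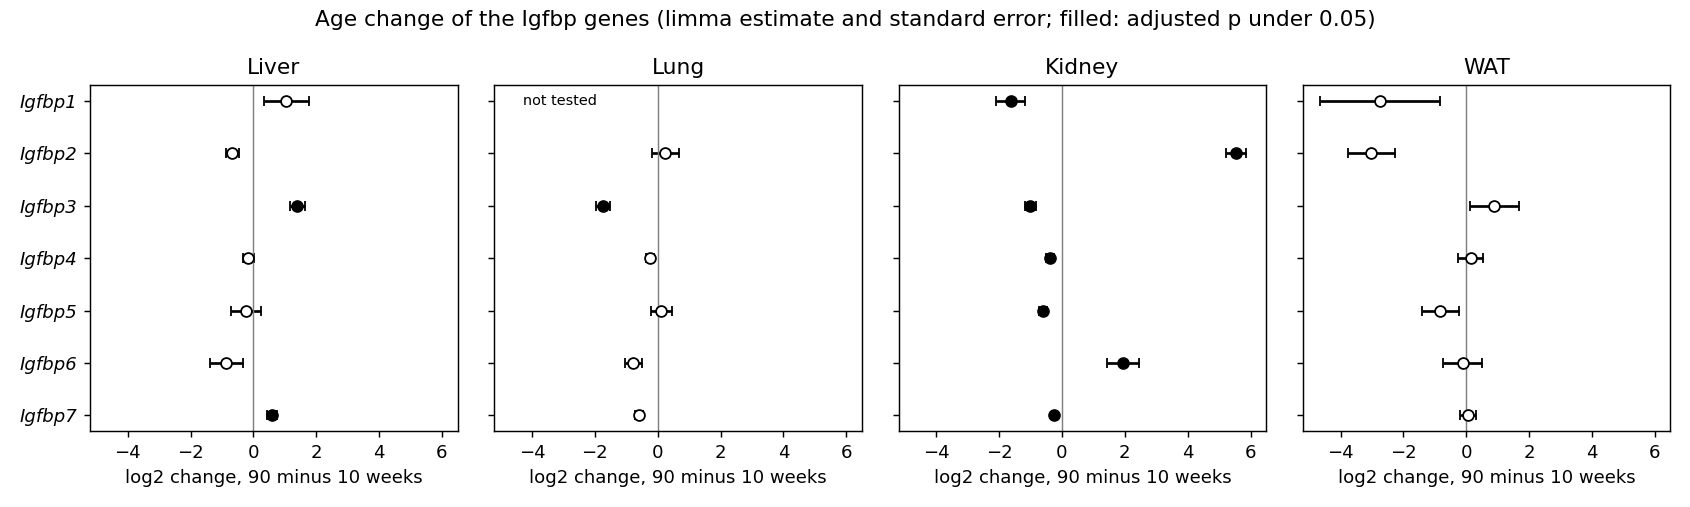
Log2 change from 10 to 90 weeks of each Igfbp gene in each tissue, as the limma estimate with its standard error (n = 3 samples of each age), with filled points for an adjusted p under 0.05. The largest change is that of Igfbp2 in the kidney, 5.52, and no member is called in WAT.

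Of the members tied to insulin and nutrition, Igfbp2 moved most. In the kidney its level was -3.89, -3.95 and -3.62 at 10 weeks and 2.37, 1.67 and 1.08 at 90 weeks. Young kidneys thus lay near the bottom of what the arrays measure, although the probe was well above background in all 3, and each aged kidney was far above each young kidney. The difference was 5.52 on the log2 scale, or 46.0-fold (standard error 0.32, limma adjusted p = 8.65e-05), and it was called under all 16 alternatives, at 4.92 to 5.88.

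In WAT the change of Igfbp2 ran the other way. Its level was -0.58, 1.65 and 0.50 in young and -1.90, -1.82 and -3.77 in aged samples, so the groups did not overlap. The difference of -3.02 did not pass (standard error 0.75, limma adjusted p = 0.104), and without young WAT 1 it was -3.57 (adjusted p = 0.0867). It was called in 1 fit of all 24 arrays (adjusted p = 0.000722). The hepatocyte sum was higher in the same young samples, at 7.24, 8.93 and 25.6 against 0.772, 1.97 and 0.958 in the aged, and the mesothelium sum was 11.9, 8.65 and 6.64 in the aged. In the aged samples 5 of 6 genes of B and T lymphocytes and 2 of 6 macrophage genes were called higher. Their part in the result was not tested.

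In the liver, Igfbp2 was at 6.27, 6.22 and 5.94 in young and 5.83, 5.16 and 5.43 in aged samples. Every aged liver was lower, and the difference of -0.67 did not pass (standard error 0.22, adjusted p = 0.0576). Without aged liver 1 it was -0.85 and passed (adjusted p = 0.0427). In the lung the young samples stood at 3.29, 3.57 and 3.55 and the aged at 4.74, 3.35 and 3.06. The highest was aged lung 1, the sample with the hepatocyte sum of 219. The change of 0.25 (adjusted p = 0.743) became -0.27 without it (standard error 0.15, adjusted p = 0.323).

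Igfbp1, which insulin holds down in the liver, was most variable among the aged livers, at 6.12, 9.29 and 7.87 against 6.73, 6.37 and 7.04 in the young. Aged liver 1 was below every young liver and the others above them. The change of 1.04 had a standard error of 0.72 and did not pass (adjusted p = 0.298). Without aged liver 1 it was 1.86 (adjusted p = 0.0421), the only 1 of 16 alternatives under which it was called. Over those alternatives the change ran from 0.28 to 1.86.

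In the kidney Igfbp1 fell from 3.74, 2.56 and 4.08 to 1.76, 1.34 and 2.37, with no overlap. The difference of -1.64, or 3.11-fold, was called (standard error 0.45, limma adjusted p = 0.0189), and the call was lost without young kidney 1 or 3 or aged kidney 1 or 2 (adjusted p between 0.0512 and 0.0598). The direction was the same under all alternatives.

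In the lung and WAT Igfbp1 was well above background in some samples only. No young lung and 2 of 3 aged lungs had it well above background, at 0.18 in aged lung 1 and -4.91 in aged lung 2, and the gene was not tested there. In WAT the young samples stood at -0.37, -7.88 and -3.13, the first and last of them well above background, and the aged at -7.69, -4.94 and -7.00, of which 1 was. The difference of -2.75 had a standard error of 1.90 (adjusted p = 0.470), and it was -1.03 without young WAT 1 and -4.79 without young WAT 2. The sample with the highest Igfbp1 in the lung was the one with the highest hepatocyte sum. In WAT Igfbp1 was highest in young WAT 1, whose hepatocyte sum of 7.24 was the lowest of the young. Young WAT 1 also had a kidney tubule sum of 5.91, against 1.14 and 1.08 in young WAT 2 and 3. The part of these sums was not tested.

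**Figure D3:**
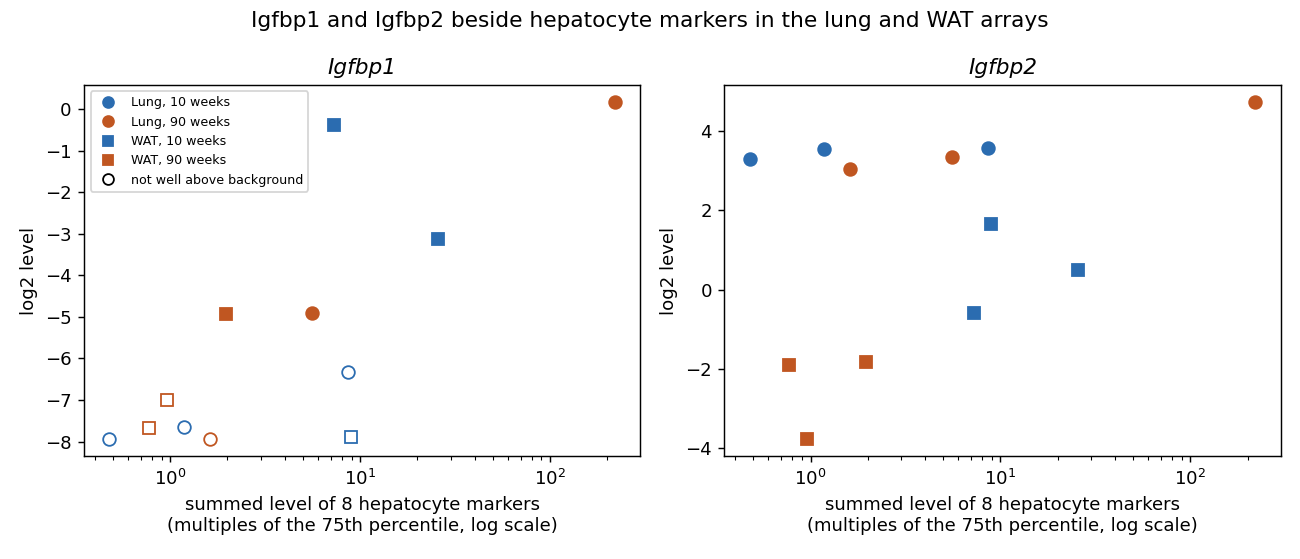
Log2 level of Igfbp1 (left) and Igfbp2 (right) against the summed level of 8 hepatocyte markers in the 12 arrays of lung (circles) and WAT (squares), with blue for 10 weeks, orange for 90 weeks and open symbols for probes not well above background. Aged lung 1, with a sum of 219, has the highest Igfbp1 (0.18) and Igfbp2 (4.74) of these arrays.

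Igfbp3, the main carrier of IGF1 in blood, was the member called in the most tissues, and it did not move in 1 direction. In the liver it rose from 2.80, 2.89 and 2.31 to 4.38, 3.68 and 4.14, with every aged sample above every young one. The rise of 1.40, or 2.64-fold, was called (standard error 0.25, limma adjusted p = 0.0110), also without any 1 of the 6 livers, but not when the spread was taken from this gene alone (adjusted p = 0.0530). In the lung it fell from 3.69, 3.70 and 3.40 to 1.50, 2.26 and 1.81, again with no overlap. The fall by 1.74, or 3.34-fold, was called (standard error 0.21, adjusted p = 0.0167) but not in 1 fit of all 24 arrays (adjusted p = 0.0620), and without any 1 of the young lungs it was between -1.84 and -1.68 and no longer called (adjusted p between 0.0594 and 0.0893). Without aged lung 1 it was -1.56 (adjusted p = 0.0267).

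In the kidney Igfbp3 went from 5.65, 5.74 and 5.29 to 4.73, 4.64 and 4.29. The fall by 1.01 was called (standard error 0.17, limma adjusted p = 0.00286), and with the arrays scaled to the spike-in control spots it was -0.66 (adjusted p = 0.0510). In WAT the young samples stood at 2.08, 2.76 and 2.63 and the aged at 2.39, 2.55 and 5.21. Aged WAT 3 alone was high, and the change of 0.89 (adjusted p = 0.564) became -0.02 without it. Without young WAT 1 it was 0.69.

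Igfbp5, which binds matrix as well as IGFs, was called in the kidney alone. There it went from 4.13, 3.69 and 3.87 to 3.22, 3.40 and 3.23, a fall by 0.61 with no overlap (standard error 0.13, limma adjusted p = 0.00748), which was -0.26 and not called under both the spike-in scaling and quantile normalization (adjusted p = 0.291 and 0.145). In the liver (-0.23), lung (0.11) and WAT (-0.83) the ages overlapped. The WAT samples spread from 2.95 to 4.12 when young and from 1.89 to 3.92 when aged. The lung change was 0.50 without aged lung 1 and the WAT change -1.21 without young WAT 1, neither of them called (limma adjusted p = 0.0604 and 0.318).

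Igfbp4 was called in 1 tissue. By the brighter probe the kidney changed by -0.38, the lung by -0.25, the liver by -0.16 and WAT by 0.14, and the kidney change alone was called (standard error 0.13, adjusted p = 0.0378). Without aged lung 1 the lung change was -0.26, and without young WAT 1 the WAT change was -0.32. The kidney samples went from 3.64, 3.83 and 3.76 to 3.20, 3.30 and 3.59. The other probe, which correlated with the first at 0.989 over the 24 arrays, also fell in the kidney, by 0.34 (adjusted p = 0.0180). Both scalings to spike-ins and to quantiles brought the kidney change of the brighter probe to -0.03, and the call was also lost without young kidney 2 or 3 or aged kidney 1 or 2 (adjusted p between 0.0886 and 0.110).

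Igfbp6, which favours IGF2, rose in the kidney, where it is otherwise scarce. The young kidneys were uneven, at -0.07, -1.004 and -2.02, and the aged kidneys stood above all of them, at 1.49, 0.52 and 0.71. The rise of 1.94, or 3.83-fold, was called (standard error 0.52, limma adjusted p = 0.0173), and without aged kidney 1 it was 1.64 and not called (adjusted p = 0.0581). In the lung the aged samples stood at 5.33, 6.05 and 4.95 and the young at 6.05, 6.21 and 6.37, so that the groups all but touched, and the difference of -0.77 did not pass (adjusted p = 0.156). Without aged lung 2 it was -1.07 and passed (adjusted p = 0.0342), and without aged lung 1 it was -0.71 (adjusted p = 0.258).

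In the liver Igfbp6 was at 1.12, 0.01 and 0.55 in young and 0.84, -0.995 and -0.75 in aged samples. The groups overlapped through aged liver 1, and without it the change of -0.86 (adjusted p = 0.236) was -1.43 (adjusted p = 0.0420). In WAT the young samples were at 4.19, 6.63 and 5.97, with young WAT 1 lowest, and the aged between 5.20 and 5.78. The change of -0.11 was -0.81 without young WAT 1 (adjusted p = 0.214). The order of the young WAT samples was that of their mesothelium sums (1.65, 51.1 and 26.0) and fibroblast sums (225, 500 and 403), whose part in the spread was not tested.

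Igfbp7 was the steadiest member, with an SD of at most 0.20 in each group other than young WAT. In the liver it rose from 6.03, 6.01 and 5.83 to 6.46, 6.62 and 6.56, by 0.59 or 1.505-fold (standard error 0.15, limma adjusted p = 0.0301), with no overlap. That call was lost without any 1 of the 6 livers (adjusted p between 0.0526 and 0.0943) and with the spike-in scaling (0.75, adjusted p = 0.105). In the lung it went from 7.59, 7.43 and 7.44 to 7.11, 6.90 and 6.71, with no overlap, and the difference of -0.58 did not pass (standard error 0.13, adjusted p = 0.0581). It passed without aged lung 1, at -0.68 (adjusted p = 0.0424). In WAT the change was 0.06, and -0.18 without young WAT 1.

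The kidney call of Igfbp7 depended on the scale and on single samples, and it was kept under 5 of 16 alternatives. Its level went from 8.55, 8.53 and 8.65 to 8.35, 8.28 and 8.37, a fall by 0.24 (standard error 0.08, limma adjusted p = 0.0334) that lay close to the median change of all kidney genes, -0.23, and that turned to 0.12 with the spike-in scaling (adjusted p = 0.455) and to a called rise of 0.34 with quantile normalization (adjusted p = 0.00906). With the spike-in scaling the median of all kidney genes was 0.12, and of the 5 lower calls of the family there only that of Igfbp1 was left, while the rises of Igfbp2 and Igfbp6 were called under both scalings. In 1 fit of all 24 arrays, which shares the spread of all tissues, none of the 5 lower calls was left and both rises were.

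The age change differed among the tissues for 4 of 7 members in an F-test of limma over all arrays, as it did for 30.5% of all genes. These were Igfbp2 (adjusted p = 7.46e-06), Igfbp3 (adjusted p = 0.00485), Igfbp6 (adjusted p = 0.0378) and Igfbp7 (adjusted p = 0.00379). For Igfbp1, Igfbp4 and Igfbp5 a difference was not shown (adjusted p = 0.179, 0.656 and 0.639). For Igfbp1 the fit took in lung and WAT values that were partly not well above background. Its SD was 4.11 in aged lung and 3.80 in young WAT, so this test says little about that gene.

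Each tissue was then set against the mean of the other 3. The kidney stood apart for 2 members (18.1% of all genes), by 6.67 for Igfbp2 (standard error 0.62, adjusted p = 2.21e-06) and by 2.52 for Igfbp6 (standard error 0.67, adjusted p = 0.0141). The call of Igfbp6 was lost without the young samples numbered 2 (2.45, adjusted p = 0.0563) or 3 (1.94, adjusted p = 0.136). WAT stood apart for 1 (10.7%), by -4.72 for Igfbp2 (adjusted p = 0.000228). The liver stood apart for 2 (10.5%), by 2.02 for Igfbp3 (adjusted p = 0.0272) and by 0.84 for Igfbp7 (adjusted p = 0.00562). The lung stood apart for the same members in the other direction (9.32% of all genes), by -2.17 for Igfbp3 and by -0.72 for Igfbp7 (adjusted p = 0.0224 and 0.0186). The comparisons share arrays, since each tissue enters the mean of the others.

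The kidney rises of Igfbp2 and Igfbp6 stood beside large shifts in marker lists. All 5 genes of a list for injured tubules were called higher there, with a median change of 5.82 and a summed level of 1.99 to 2.48 in young and 60.3 to 69.8 in aged kidneys. In it, Havcr1, the kidney injury molecule, rose by 6.08 and Vcam1, an adhesion molecule, by 4.55. Of the same list, 2 of 3 tested genes were called higher in the liver (median 3.36), 1 of 4 in WAT and 0 of 3 in the lung. In the kidney all 6 fibroblast genes were called higher (median 2.996, sums of 15.7 to 18.4 and 78.4 to 108). So were all 6 macrophage genes and all 6 genes of B and T lymphocytes. Also higher were 5 of 7 adipocyte genes (1 lower), 4 of 5 podocyte genes and 2 of 3 tested mesothelium genes. The mesothelium sums were low, at 0.122 to 0.229 in young and 0.433 to 0.468 in aged kidneys. Of 8 tubule genes 7 were called lower, with sums of 1324 to 1557 in young and 569 to 893 in aged kidneys, and 6 of 7 tested genes of the hepatocyte list, some of which the kidney also uses, were called lower as well. The part of these shifts in the changes of the Igfbp genes was not tested.

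The lung fall of Igfbp3 stood beside a lower sum of the 6 fibroblast genes, 104 to 134 in young and 41.5 to 64.4 in aged lungs, with a median change of -1.67 and none called (6 lower at an unadjusted limma p under 0.05). Adipocyte genes also went down in the lung, with 3 of 7 called lower. In the liver, where Igfbp3 and Igfbp7 rose, 5 of 6 fibroblast genes and 6 of 6 macrophage genes were called higher, and the fibroblast sum was 56.3 to 71.3 in young and 138 to 157 in aged livers. Their part was not tested.

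Other genes of the IGF system, 31 in all, were counted by the same calls. In the kidney 13 of 29 tested were higher (20.6% of all genes) and 10 lower (42.6%), or 15 and 5 with the spike-in scaling. In the liver 5 of 24 were higher (10.5% of all genes) and 3 lower (17.0%), or 5 and 1 with the spike-in scaling. In the lung 3 of 29 were lower (2.89%) and none higher (2.72%, with 0 higher at an unadjusted limma p under 0.05). In WAT none of 29 was called (2.01% of all genes higher and 0.579% lower), with 1 higher and 5 lower at an unadjusted limma p under 0.05.

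Among the ligands and receptors, Igf1, the growth factor itself, was higher in the aged kidney by 1.96 (standard error 0.23, limma adjusted p = 0.000759), while Igf2, Igf1r, Igf2r and Insr were lower there, between -0.75 and -0.47. With the spike-in scaling 1 of these 4 lower calls was left. No ligand or receptor was called in the liver, lung or WAT, where 1 higher and 1 lower, 0, and 1 higher and 1 lower had an unadjusted limma p under 0.05. With the spike-in scaling Igf1r was called higher in the liver (1.26, limma adjusted p = 0.0171).

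Of the proteins that hold or cut the IGFBPs, Pappa2, a protease that cuts IGFBP3 and IGFBP5, was higher in the aged kidney by 3.67 (standard error 0.39, limma adjusted p = 0.000553), and Stc2, a stanniocalcin that inhibits pappalysins, by 2.85 (adjusted p = 5.59e-05). Pappa rose by 0.54, and Igfals, the acid-labile subunit, fell by 0.82 in the kidney and by 0.73 in the liver, the latter call lost with the spike-in scaling. In WAT this list had a median of -1.51, against -0.05 over all genes, with none of 5 called and 3 lower at an unadjusted limma p under 0.05.

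Other genes share the IGFBP domain with the family. In the kidney 7 of 11 tested were higher (20.6% of all genes) and 2 lower (42.6%), with a median of 1.71 against -0.23 over all genes. Htra3, a secreted protease, rose by 3.92 (adjusted p = 9.61e-05), and the matricellular genes Ccn1, Ccn2, Ccn3 and Ccn4 rose by 1.78, 2.23, 1.71 and 2.65. Ccn5, well above background in no young kidney, was at least 8.86-fold higher, and it entered the test only through the aged kidneys. Esm1, which endothelial cells secrete, fell there by 1.60 (adjusted p = 0.000386).

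In the liver Esm1 rose instead, by 5.62 (standard error 0.65, limma adjusted p = 0.00312), together with Ccn2, by 2.42 (adjusted p = 0.00801), and Htra1, by 1.01 (adjusted p = 0.0447). Htra4, well above background in no aged liver, was at least 2.40-fold lower, and it entered the test only through the young livers. In the lung Ccn3 and Htra4 were lower, each by 1.43 (adjusted p = 0.0201 and 0.0183). The difference in the age change of these relatives between tissues was not tested.

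In growth hormone and insulin signalling, the receptor gene Ghr fell in the kidney by 1.74 (standard error 0.24, limma adjusted p = 0.00140) and Socs2, an inhibitor that growth hormone induces, rose by 1.17 (adjusted p = 0.000381). Irs1, an adaptor of the insulin and IGF1 receptors, fell in the lung by 1.04 (adjusted p = 0.0330). The named changes of at least 1 in size kept their sign and their call under 4 other scalings and background corrections. When the spread was taken from each gene alone, without limma's sharing between genes, the kidney calls among them stood, whereas Ccn2 and Htra1 in the liver (adjusted p = 0.0535 and 0.123) and Ccn3, Htra4 and Irs1 in the lung (adjusted p = 0.0730, 0.0719 and 0.0922) lost theirs.

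**Figure D4:**
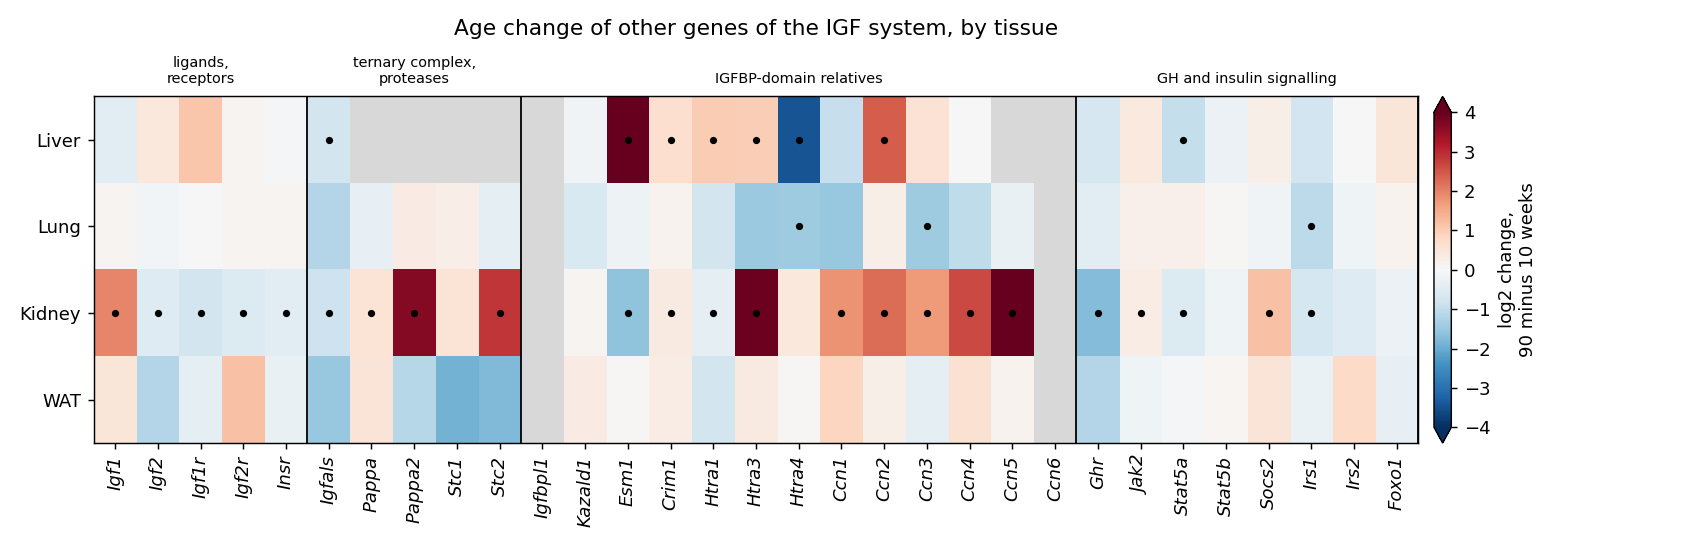
Log2 change from 10 to 90 weeks of 31 other genes of the IGF system (columns, grouped by list) in the 4 tissues (rows), with red for higher and blue for lower at 90 weeks, colours capped at 4 on either side, dots for an adjusted p under 0.05 and grey for genes not tested. The kidney row holds 23 of the called cells and the WAT row none.

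For each member the genes with the most similar pattern, up to 3, were found by Pearson's r over the 24 arrays among 19274 genes, as a description: the arrays fall into 4 tissues, and any gene with the same tissue order scores high. Igfbp1 went with Elovl2 (0.976), A1cf and Ttr, Igfbp4 with Cfb (0.977) and Dctpp1, and Igfbp5 with Taf9b (0.970), Lynx1 and Hoxa3. Igfbp6 went with Rspo1 (0.975), Meox2 and Arsj, and Igfbp7 with Castor2 (0.973), Gemin8 and Ncoa7. The least similar partners were those of Igfbp2, with Stap2 (0.899), Slc39a4 and Dmd, and of Igfbp3, with Ppargc1a (0.815), Nfyc and 4632404H12Rik.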

How the data were processed

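Cy3-labelled RNA of 24 samples was hybridized to 1-colour Agilent mouse arrays, 1 array per sample. Per the file headers and the submitters' processing notes, the authors read the scans with Agilent Feature Extraction 11.0.1.1, and the deposited intensity is its processed signal, background-subtracted but not scaled between arrays. The array was designed on mm9. Genes were named through RefSeq accessions of GRCm38.p6, which gave a symbol to 58.3% of the probes, and no coordinates were carried between builds.

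From these intensities, spots marked as outliers (1841 in all) and controls were left out, spots of a probe were averaged, and log2 signal minus the array's 75th percentile was tested with limma 3.58.1 in R 4.3.3. A probe was tested in a tissue if well above background on at least 3 of 6 arrays, the brightest probe stood for its gene, and p-values were adjusted by Benjamini-Hochberg over all genes, with a threshold of 0.05. Pairs of tissues and the change among tissues came from 1 fit of all arrays. The fits were tested on simulated data.

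All members, in every tissue, and those genes of the IGF lists called with a change of at least 1 were to be named, and smaller named changes were added after their values were seen. The members and all lists were chosen with earlier results of these data known. With 3 samples a group, an exact two-sided permutation test of 1 gene cannot give a p below 0.1. The number of arrays limits the precision. Alternatives covered scaling, background, filter, probe choice, test, a replicate block and leaving out each sample. In the fit of all arrays, all samples of 1 age and number were left out together. Of the genes most like a member in pattern, 1 is not reported here.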

Additional observations from a re-analysis of the deposited data

Results flagged for a closer look

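The age change differed among the 4 tissues for 4 of the 7 members by the F-test of limma over all 24 arrays, with Benjamini-Hochberg adjustment. The adjusted p was 7.46e-06 for Igfbp2, 0.00485 for Igfbp3, 0.0378 for Igfbp6 and 0.00379 for Igfbp7. Groups of 3 samples were too small for a check of single outlying values.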

How the results depend on the processing

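The kidney rise of Igfbp2 was called under each of its 16 alternatives. Over all member changes, 359 alternative values kept direction and call, 47 lost the call, 12 gained one and 18 turned sign. The cause was not tested. Spike-in scaling gave 1 member higher in the liver, 2 lower in the lung and 1 lower in the kidney, and quantile normalization 2 lower in the kidney. Normexp background correction and median centring each gave 1 lower in the liver, and no filter on dim probes 3 lower in the kidney. In 1 fit of all 24 arrays 1 member was lower in WAT, 0 in the kidney and 0 in the lung. The adjusted t-test gave 1 higher in the liver, 0 lower in the lung, and 1 higher and 3 lower in the kidney, and unadjusted 1 lower in the liver, 2 in the lung and 1 in WAT. It lost Igfbp3 in the liver and lung and Igfbp1, Igfbp4 and Igfbp6 in the kidney (adjusted p between 0.0530 and 0.0726). Of the other IGF genes it called, after adjustment, 1 higher and 1 lower in the liver, 0 in the lung and 0 in WAT.

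Same-numbered young and aged samples of a tissue did not deviate together (correlations of -0.17 to 0.18), so the numbers were not taken as pairs. This does not bear on whether 1 animal gave several tissues. With the sample number as a block in each tissue, the kidney had 2 members higher and 4 lower, and the liver, lung and WAT had 0 in either direction. With age and number as a block across tissues, 4 differed in age change among tissues and 7 in level. Leaving out 1 sample at a time gave 1 to 2 members higher and 0 to 2 lower in the liver. It gave 0 higher and 0 to 2 lower in the lung, 1 to 2 higher and 2 to 5 lower in the kidney, and 0 in WAT. For the F-test among tissues, all samples of 1 age and number were left out together, across the tissues. There, 3 to 4 members differed in age change. The member lost there was Igfbp6, whose adjusted p was then 0.0535 to 0.226 other than without the young samples numbered 1, and 0.0545 under median centring.

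Some changes turned sign. Under quantile normalization they were Igfbp4 in the liver (0.10), Igfbp7 in the kidney (0.34) and Igfbp7 in WAT (-0.14). Under spike-in scaling they were Igfbp4 in the liver (0.0071), Igfbp5 in the lung (-0.052) and Igfbp7 in the kidney (0.12). Igfbp4 in the lung was 0.014 by its other probe, an alternative chosen after seeing the data. Leaving out 1 sample at a time moved Igfbp5 between -0.71 and 0.095 in the liver and between -0.10 and 0.50 in the lung, and Igfbp2 between -0.27 and 0.58 in the lung. In WAT it moved Igfbp3 between -0.020 and 1.39, Igfbp4 between -0.32 and 0.39, Igfbp6 between -0.81 and 0.41 and Igfbp7 between -0.18 and 0.22. Low signal limits Igfbp1 in the lung and WAT.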

Other observations

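Markers of vessels, where Igfbp7 is abundant, were counted by the same calls. Of 6 endothelial genes in the kidney none was called higher and 1 lower, with a median change of 0.12, but with the spike-in scaling 4 were called higher and 0 lower (median 0.48), and with quantile normalization 2 and 0. In the kidney 5 of 6 genes of pericytes and smooth muscle were called higher, with a median of 1.47. In the liver 1 of 6 endothelial genes and 2 of 6 genes of pericytes and smooth muscle were called higher. In the lung no endothelial gene was called by limma (2 lower at an unadjusted p under 0.05, and 1 called lower with the spike-in scaling), and 1 gene of pericytes and smooth muscle was called higher and 2 lower. Their part in the changes of Igfbp7 was not tested.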
